A study of Mus musculus with 11 samples.

Results

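Iron handling genes were described in the stromal vascular fraction (SVF, the cells of fat tissue other than adipocytes) of mouse perigonadal white adipose tissue (pgWAT, the fat depot beside the gonads). The 8 genes were selected by symbol, as genes of iron uptake, transport, export and storage, from the 23507 genes of the count table, and all 8 were found. They were chosen for their pattern over the cell classes of these same cells, so their levels by class and by subtype are given as a description, with no test. The animals were adult Pdgfrb-GFP reporter mice, carrying the Tg(Pdgfrb-eGFP) transgene on a C57BL6/J background, in which green fluorescent protein is made under the Pdgfrb promoter and marks mural cells and adipose stem cells (ASC, fibroblast-like cells that can give rise to adipocytes). Both sexes carried the transgene, no treatment was given, and the comparison between animals was that of 3 male mouse ids (1, 4 and 8) with 4 female ids (2, 3, 5 and 6/7), of which 6/7 stands for 2 animals pooled. Cells were sorted into plates by the reporter, by CD31 (an endothelial surface protein) and by DPP4 (a surface protein of some ASC), and sequenced with Smart-seq2, a full-length protocol that counts reads and not molecules. Each plate held cells of 1 mouse id, so animal and plate cannot be told apart. In mice 1, 2 and 6/7 most endothelial cells and most ASC came from different plates and sorts. For these ids a difference between the 2 kinds of cell is largely also one between plates. In mice 5 and 8 both kinds came from 1 plate.

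Iron circulates bound to transferrin (Trf), which cells take up through the transferrin receptor (Tfrc), and iron that is not bound to transferrin enters through the transporter Slc39a14 (ZIP14). Within the cell iron is held in ferritin, a shell of heavy (Fth1) and light (Ftl1) chains. It leaves through ferroportin (Slc40a1), the known iron exporter of animal cells, and is oxidised on the way out by the copper enzymes hephaestin (Heph), which is anchored in the membrane, and ceruloplasmin (Cp), which is secreted or anchored. Haptoglobin (Hp) binds haemoglobin set free from red cells, and macrophages take up the complex through Cd163 and return the iron of old red cells to the blood.

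Part of this system is controlled after transcription by the iron-responsive element (IRE), a hairpin in the messenger RNA to which the iron regulatory proteins bind when iron is low. Bound at the 5′ end it holds back translation, and bound in the 3′ UTR it protects the message from decay, so a read count of Fth1 or Slc40a1 is not a measure of its protein. The UTRs of GENCODE vM21 transcripts (build GRCm38) were searched on the transcript strand for a C, any 5 bases, the loop CAGTGN (N for any base) and 5 bases that pair with the 5 before the loop, G-U pairs included. The elements found in the members, and in Ftl1 as the partner of Fth1, are printed 5′ to 3′ with the 6 bases of the loop in capitals, to show the stems that flank the same loop. They lie in exon 1 of Fth1 at chr19:9982733-9982761 (+ strand), in exon 1 of Ftl1 at chr7:45459778-45459806 (− strand), in exon 1 of Slc40a1 at chr1:45925464-45925492 (− strand), all 3 in the 5′ UTR, and in the 3′ UTR of Tfrc, in exon 19 on the + strand, at chr16:32631220-32631248, chr16:32631599-32631627, chr16:32631664-32631692 and chr16:32631711-32631739.
Fth1: tcctgcttcaaCAGTGCttgaacggaacc
Ftl1: tcttgcttcaaCAGTGTttgaacggaaca
Slc40a1: aacttcagctaCAGTGTtagctaagtttg
Tfrc, element 1: attatcggaagCAGTGCcttccataatta
Tfrc, element 2: attatcgggagCAGTGTcttccataatgc
Tfrc, element 3: tatatcggagaCAGTGAtctccatatgtt
Tfrc, element 4: attatcgggaaCAGTGTttcccataattt
Such a match was present in the 5′ UTR of 31 of 21901 protein-coding genes (0.142%) and in the 3′ UTR of 129 (0.589%). No match was found in the UTRs of Heph, Hp, Trf, Cp and Slc39a14. A match is a description of the letters and not a measured binding site.

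On GRCm38 the members lie on 8 chromosomes: Trf at chr9:103204001-103230444, Tfrc at chr16:32608920-32632794, Slc39a14 at chr14:70303469-70351425, Slc40a1 at chr1:45908068-45926523, Heph at chrX:96455359-96574485, Cp at chr3:19957054-20009145, Fth1 at chr19:9980598-9985098 and Hp at chr8:109575128-109579172.

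The table held 3261 cells on 11 plates, with 1177 male and 2084 female cells and a median of 629323 reads per cell (range 149931 to 3548334). Cells were clustered and each class was named from fixed markers, none of them an iron gene, and is written "-like" for this reason. There were 2249 ASC-like cells from all 7 mouse ids, 560 blood endothelial cell (EC)-like cells from 5, 137 macrophage-like cells from mouse 1 (76) and mouse 5 (61), and mural-like cells (pericytes and vascular smooth muscle cells, VSMC) of mouse 1 (82) and mouse 2 (13) in sufficient number. Macrophages were present although the sort was set against CD45, a leukocyte surface protein. Classes were also divided by plate. In mouse 1 the CD31 plate held 174 EC-like, 73 macrophage-like and 2 ASC-like cells, and the reporter plate 3, 3 and 242. In mouse 2 the plate with 169 EC-like and 13 mural-like cells held 0 ASC-like cells. In mouse 6/7 the plates held 137 and 1 EC-like against 49 and 235 ASC-like cells. Class differences within these mice are thus in large part differences between plates. Of the 60 pericyte-like cells, 54 carried markers of another class, so mural-like values are the least certain. So did 31 of the 137 macrophage-like, 35 of the 560 EC-like and 13 of the 2249 ASC-like cells. Levels are CPM, the reads of a gene relative to all reads in genes and scaled to a fixed total, in the summed cells of a class in 1 mouse, with at least 10 cells. Ribosomal RNA rows took 24.6% to 53.9% of the reads of the ASC-like sums and 27.7% to 51.4% of those of the EC-like sums. Scaling by library totals alone shifted the median of all genes between the sexes by -0.60 on the log2 scale in ASC-like and -0.80 in EC-like cells, and the part of ribosomal RNA in this was not tested. Fold changes between the sexes are therefore those of the TMM scaling (medians 0.04 and 0.00).

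Per kilobase of exon, the ferritin heavy chain was the most abundant member in each of these 4 classes and transferrin the second. In ASC-like cells mean CPM per kb were 511 for Fth1, 138 for Trf, 50.2 for Hp, 8.89 for Cp, 6.14 for Heph, 1.09 for Slc40a1, 0.483 for Slc39a14 and 0.123 for Tfrc. In macrophage-like cells the order changed below Trf, with Tfrc (8.61) and Slc40a1 (8.30) above Hp (6.15) and Cp (3.12), and Heph last (0.0303). In EC-like cells Slc40a1 was last (0.0144 CPM per kb), and in mural-like cells it was last as well (0.110).

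**Figure D1:**
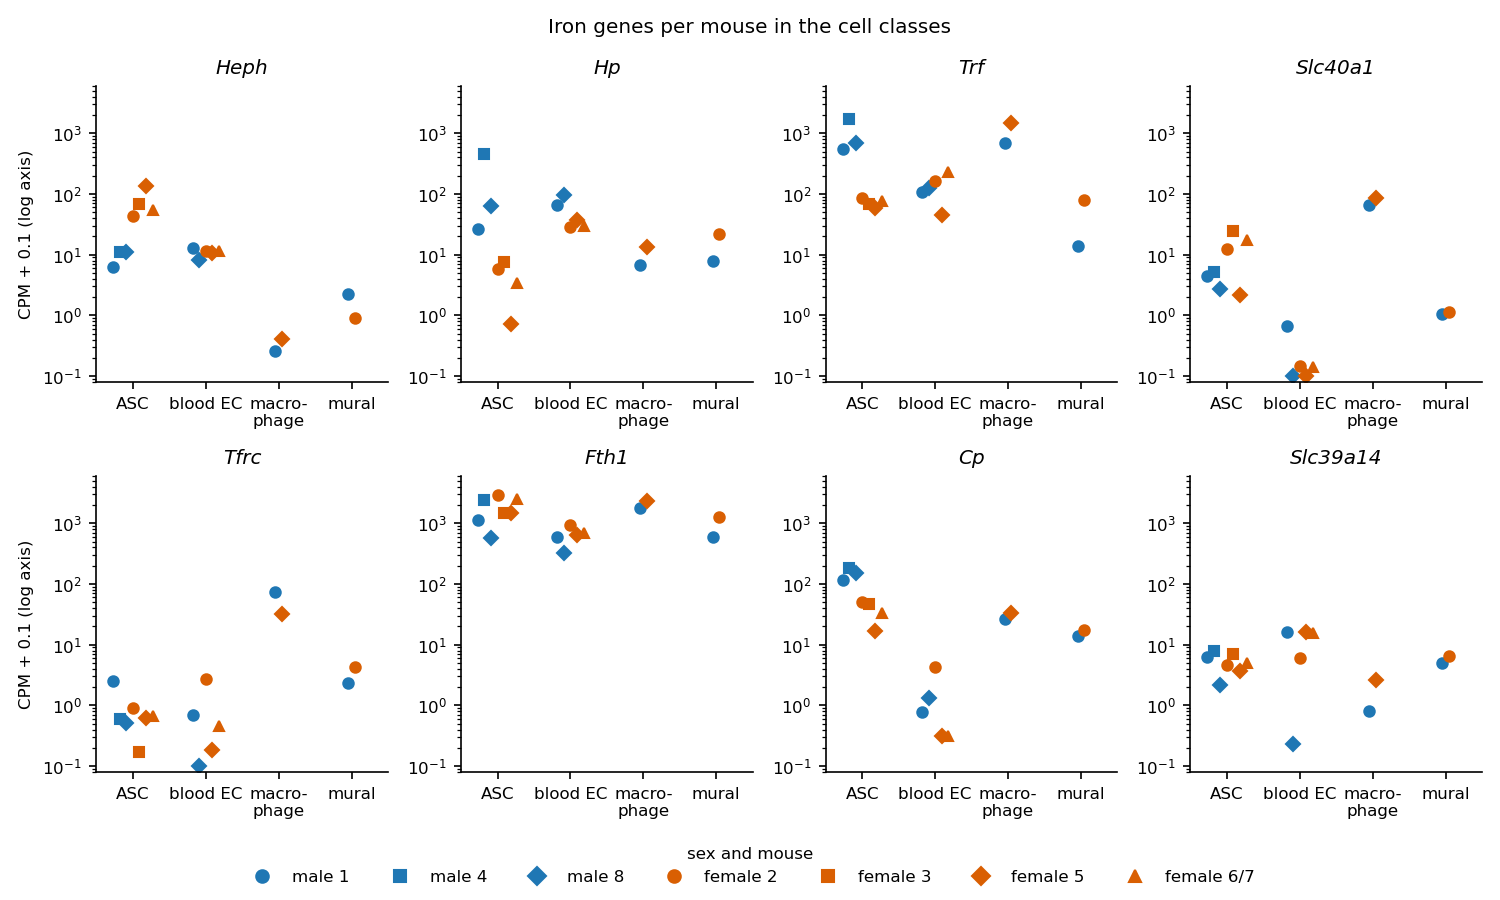
Level of each of the 8 genes by class, as CPM with a small constant added so that counts of 0 can be drawn, on a log axis shared by all panels. Each point is 1 mouse id, blue for males and orange for females. Slc40a1 and Tfrc are highest in the 2 macrophage-like points, Heph is lowest there, Cp is lowest in the EC-like points, and Fth1 is above 300 CPM in each point.

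Transferrin was high in macrophage-like cells of both mice and differed widely among ASC-like sums. Trf stood at 679 CPM in the macrophage-like cells of mouse 1 and 1493 in those of mouse 5. In ASC-like cells of the males it was 549.8 (mouse 1), 1698 (mouse 4) and 680.6 (mouse 8), and in females 86.3 (mouse 2), 67.5 (mouse 3), 57.7 (mouse 5) and 75.3 (mouse 6/7). All male values were above all female values. Within mouse 1 the macrophage-like level exceeded the ASC-like level by only 0.31 on the log2(CPM + 1) scale, and within mouse 5 by 4.67. EC-like cells held 109, 125, 162, 45.8 and 233 CPM (mice 1, 8, 2, 5 and 6/7), in the range between female and male ASC-like cells, apart from mouse 5, which was below both. Adipocyte markers were higher in EC-like than in ASC-like cells, with values given below for Hp. An unnamed cluster led by adipocyte genes held 762.6 CPM of Trf. The part of adipocyte RNA in the Trf level of EC-like cells was not tested. Mural-like cells held 13.7 (mouse 1) and 80.0 CPM (mouse 2).

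Among these classes the transferrin receptor was highest in macrophage-like cells. Tfrc measured 74.1 CPM in the macrophage-like cells of mouse 1 and 32.3 in those of mouse 5, against 2.43 and 0.528 in the ASC-like cells of the same mice, a difference of 4.45 on the log2 scale in both. No other ASC-like or EC-like sum exceeded 2.603 CPM (EC-like cells of mouse 2), and the mural-like sums held 2.22 and 4.27. The order among ASC-like, EC-like and mural-like cells was within the spread between mice.

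Slc39a14, the transporter of iron not bound to transferrin, was low in each class. It ranged from 2.07 to 7.65 CPM in the 7 ASC-like sums, with a mean of 5.30 ± 2.89 (SD, n = 3) in males and 4.95 ± 1.36 (SD, n = 4) in females. EC-like sums held 16.3, 15.9 and 15.7 CPM in mice 1, 5 and 6/7, but 5.85 in mouse 2 and 0.135 in mouse 8. The value of mouse 8 is 2 reads in 29 cells, below the 0.203 CPM that 3 reads would give. EC-like cells were above ASC-like cells in 4 of 5 mice, all but mouse 8 (mean difference 0.71 ± 1.33, SD), which is within the spread between mice. Macrophage-like cells held 0.721 and 2.55 CPM.

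Ferroportin, the exporter, was highest in macrophage-like cells and at the edge of detection in EC-like cells. Slc40a1 measured 64.8 CPM in macrophage-like cells of mouse 1 and 84.5 in those of mouse 5, while the ASC-like cells of these mice had 4.43 and 2.04. The difference within a mouse was 3.60 and 4.81 on the log2 scale. In EC-like cells mice 8 and 5 had no read of Slc40a1, where a count of 0 allows up to 0.203 and 0.132 CPM (3 reads), and mice 1, 2 and 6/7 had 0.562, 0.0477 and 0.0395 CPM. The EC-like cells of mouse 1 also had 14.4 CPM of C1qa, a macrophage marker, against 0 to 2.24 in the other EC-like sums, and its part in the Slc40a1 value was not tested. ASC-like cells were above EC-like cells in 5 of 5 mice, by a mean of 2.62 ± 1.19 (SD). Mural-like cells held 0.951 and 1.04 CPM.

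The 2 ferroxidases were expressed by ASC-like cells and were distributed differently elsewhere. Heph, the membrane ferroxidase, ranged from 6.26 to 134.5 CPM in ASC-like cells, 7.99 to 12.7 in EC-like cells (10.9 ± 1.78, SD, n = 5) and 0.793 to 2.16 in mural-like cells, and was 0.157 and 0.308 in macrophage-like cells. Cp, which is made as a secreted and as an anchored form that counts per gene do not tell apart, ranged from 16.6 to 181 CPM in ASC-like cells and measured 26.4 and 33.3 in macrophage-like and 13.8 and 17.6 in mural-like cells. EC-like cells held 0.668, 1.22, 4.12, 0.219 and 0.217 CPM of Cp (mice 1, 8, 2, 5 and 6/7). Thus EC-like sums had Heph with little Cp, and macrophage-like sums had Cp with little Heph. Few cells carried much of this: 54.7% of the EC-like Heph reads and 20.1% of the macrophage-like Cp reads lay in the top 1% of cells. Relative to ASC-like cells, Cp in EC-like cells differed by -4.85 ± 1.28 (SD, n = 5 mice) on the log2 scale, lower in 5 of 5.

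Fth1, the ferritin heavy chain, varied least between classes. It measured 1802 and 2287 CPM in macrophage-like cells, 561 to 2869.6 in ASC-like, 326 to 930.1 in EC-like and 590.2 and 1272 in mural-like cells. Macrophage-like cells were above ASC-like cells of the same mouse by 0.66 and 0.64 on the log2 scale, less than 2-fold, and EC-like cells were below in 5 of 5 mice (-1.28 ± 0.46, SD). The light chain gene Ftl1, the most abundant other iron gene in each of the 4 classes, differed more, with 4437 and 6345 CPM in macrophage-like cells and 605 to 2513 in ASC-like cells. Processed copies of ferritin genes had rows of their own with few reads (16.3 CPM for Ftl1-ps1 in ASC-like cells), and reads may have been split between them.

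Haptoglobin was read in each class, at levels that varied widely between mice. Hp ranged from 28.2 to 96.2 CPM in the 5 EC-like sums, from 0.617 to 456 in the 7 ASC-like sums, and was 6.62 and 13.1 in macrophage-like and 7.78 and 22.0 in mural-like cells. EC-like cells were above ASC-like cells of the same mouse in 5 of 5 (mean difference 2.27 ± 1.54, SD), by 0.58 in male mouse 8 and 4.56 in female mouse 5. Adipocytes are known to make haptoglobin, and their markers were also higher in EC-like than in ASC-like cells. Their 10 genes summed to 1022 to 3445 CPM in EC-like cells, with all 10 detected and Adipoq at 41.9 to 312, against 1.82 to 36.3 CPM in ASC-like cells, with 8 to 10 detected and Adipoq at 0 to 1.33. Among the EC-like sums the order was the opposite, since mouse 8, with the highest Hp, had the lowest adipocyte sum (1022) and mice 2 and 6/7, with the lowest Hp, had the highest (3212 and 3445). Erythroid genes summed to 0.263 to 9215 CPM over the EC-like sums. The part of either in the Hp level was not tested.

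Counted over the members, 2 (Cp and Slc40a1) were lower in EC-like than in ASC-like cells by over 2-fold in each of 5 mice, and 0 were higher. Of the 9648 genes with a mean of at least 5 CPM over the 2 classes, 8.62% were lower and 8.48% higher. In macrophage-like cells 2 (Slc40a1 and Tfrc) were higher in both mice (15.3% of 9063 such genes) and 1 (Heph) was lower (14.7%). In mural-like cells 3 (Cp, Heph and Slc40a1) were lower in both mice (9.37% of 9592 such genes) and 0 were higher (9.79%). Slc40a1 was below that mean in the EC-like and mural-like comparisons, so the shares there are over genes with more reads. These comparisons share the ASC-like sums and are the pattern the genes were chosen for. In part they also compare plates and sorts, as given above, and the effect of plate was not tested.

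The share of cells with reads separated genes that many cells carried from genes that few carried. Cells were thinned to 150000 reads each, which left out 10 shallower cells. Fth1 was then read in 99.6% to 100% of the cells of each class. Tfrc was read in 48.9% of macrophage-like cells (exact 95% interval 40.3% to 57.6%) and in 1.87% of ASC-like, 5.75% of EC-like and 4.95% of mural-like cells. Slc40a1 was read in 41.6% of macrophage-like cells (33.3% to 50.3%), 13.4% of ASC-like and 3.23% of EC-like cells. The EC-like cells with reads of Slc40a1 were 18, all of mouse 1. The intervals cover counting error only, since cells of 1 mouse and PCR copies are not independent.

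Trf was read in 94.2% of macrophage-like, 58.2% of EC-like, 54.2% of ASC-like and 42.6% of mural-like cells. These shares pool the cells of all mice, and the order of EC-like and ASC-like cells differed between the sexes. In males Trf was read in 87.2% of ASC-like and 74.1% of EC-like cells, and in females in 37.1% and 48.9%. Cp was read in 63.1% of ASC-like, 46.0% of macrophage-like and 5.03% of EC-like cells, and Heph in 38.3%, 4.38% and 8.26% of these. Without thinning the shares in ASC-like cells were 74.4% for Trf, 75.4% for Cp, 52.2% for Heph, 31.3% for Hp, 20.9% for Slc40a1, 18.4% for Slc39a14 and 3.33% for Tfrc. Median reads per cell were 669563 in ASC-like, 518285 in EC-like and 661413 in macrophage-like cells. A few cells held much of some genes: 91.3% of the Tfrc reads of ASC-like cells lay in the top 1% of cells, as did 45.6% of Hp and 40.2% of Trf, but 13.6% of Cp, 15.2% of Heph and 6.28% of Fth1.

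**Figure D2:**
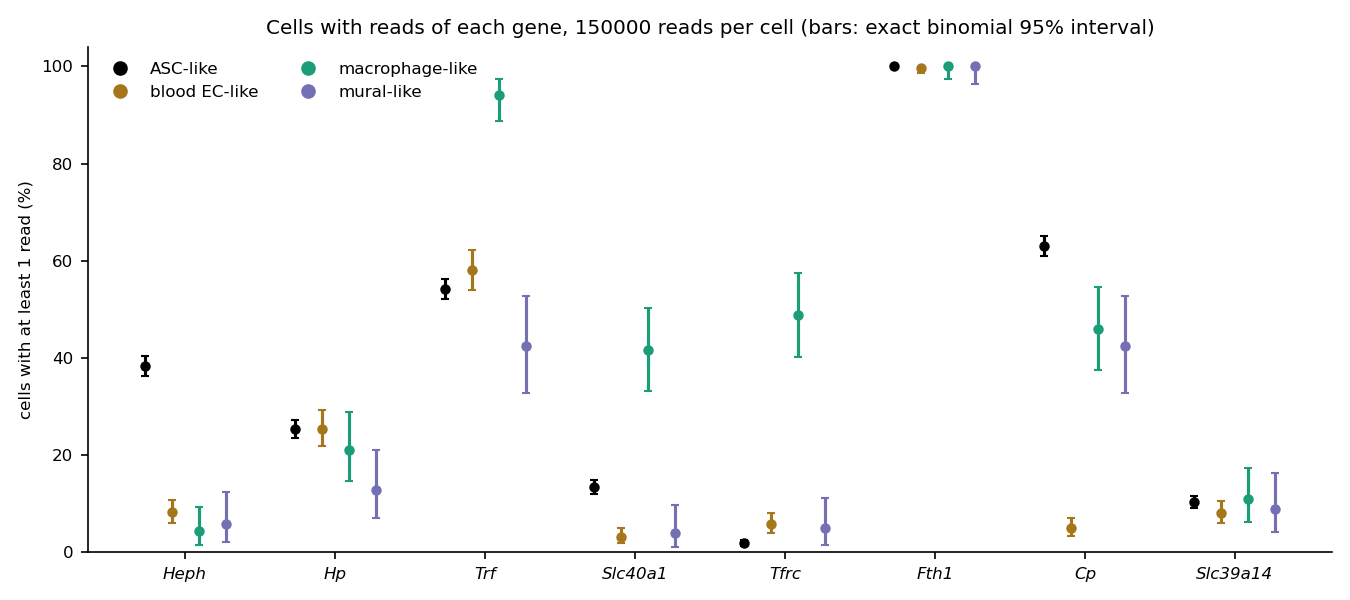
Percent of cells with at least 1 read of each gene after thinning to 150000 reads, by class, with exact 95% binomial intervals that cover counting error only. Tfrc (48.9%) and Slc40a1 (41.6%) stand out in macrophage-like cells, and Cp was read in 63.1% of ASC-like against 5.03% of EC-like cells.

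ASC-like cells were divided by marker scores into ASC1a-like (794 cells), ASC1b-like (693) and ASC2-like (762). Scores were standardised within each mouse, so that every mouse was split into 3 parts of similar size whatever its make-up (87, 71 and 86 cells in mouse 1, and 125, 117 and 121 in mouse 4), and a subtype name ranks cells within a mouse and does not show that the mouse held that subtype. The subtypes are ranges of a score and not separate types, and 15.1% of cells lay near a boundary. Dpp4, an ASC2 marker, measured 65.8 to 110.7 CPM in male and 191 to 242 in female ASC2-like sums, so cells of 1 name were not alike between the sexes. ASC2 cells carry Dpp4 and Pi16 and are held to be the more immature interstitial progenitors, and ASC1a cells carry Col15a1 and Cxcl14. Differences were taken within each of 7 mouse ids on the log2(CPM + 1) scale. No independent test was available, since the genes had been chosen with this pattern in view.

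Of the members, 3 (Cp, Trf and Slc40a1) were higher in ASC1a-like than in ASC2-like cells in 7 of 7 mouse ids. So were 5.72% of the 9306 genes with a mean of at least 5 CPM over the 2 subtypes. For Cp the mean difference was 1.68 ± 0.35 (SD), from 1.27 to 2.20. In males Cp measured 190.1, 287 and 212 CPM in ASC1a-like and 40.5, 72.6 and 55.3 in ASC2-like cells (mice 1, 4 and 8). In females it measured 78.7, 64.4, 18.1 and 43.9 in ASC1a-like and 26.5, 22.2, 6.47 and 17.6 in ASC2-like cells (mice 2, 3, 5 and 6/7). The 2 sets of values did not overlap within either sex except that mouse 5, the lowest female in both, had less Cp in ASC1a-like cells than mice 2 and 3 had in ASC2-like cells. ASC1b-like cells were also above ASC2-like cells in 7 of 7 (1.34 ± 0.34, SD).

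The Trf difference was of the same sign in all 7 but uneven, with a mean of 2.16 ± 1.87 (SD) and a range of 0.12 to 5.27. Male ASC1a-like cells held 1235, 3269.9 and 1063 CPM of Trf and male ASC2-like cells 31.1, 575 and 81.9 (mice 1, 4 and 8). Female ASC1a-like cells held 153, 90.9, 49.0 and 89.7 CPM and female ASC2-like cells 33.2, 41.2, 45.0 and 75.7 (mice 2, 3, 5 and 6/7). The subtypes were thus far apart in males and close in mice 5 and 6/7. Trf in ASC2-like cells of males 1 and 8 was just below and just above the female range.

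Slc40a1 was higher in ASC1a-like cells by a mean of 1.45 ± 1.15 (SD), from 0.53 to 3.54. In males it measured 12.7, 12.7 and 3.12 CPM in ASC1a-like against 0.180, 1.22 and 1.27 in ASC2-like cells. In females it measured 16.6, 28.7, 3.39 and 22.1 against 8.15, 19.6, 1.74 and 10.4. ASC1b-like cells were close to ASC2-like cells (0.35 ± 0.53, SD, higher in 6 of 7). Heph (0.40 ± 0.54), Hp (0.25 ± 1.05), Slc39a14 (-0.31 ± 0.67), Tfrc (0.02 ± 1.46) and Fth1 (-0.01 ± 0.27) had differences between ASC1a-like and ASC2-like cells smaller than their SD over the 7 mouse ids.

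Only Cp exceeded 2-fold in all 7, so 1 member was higher in ASC1a-like cells (0.462% of the same 9306 genes) and 0 were lower (0.72%). For ASC1b-like against ASC2-like cells 0 were higher (0.258% of 9319 genes taken by the same limit) and 0 lower (0.44%).

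**Figure D3:**
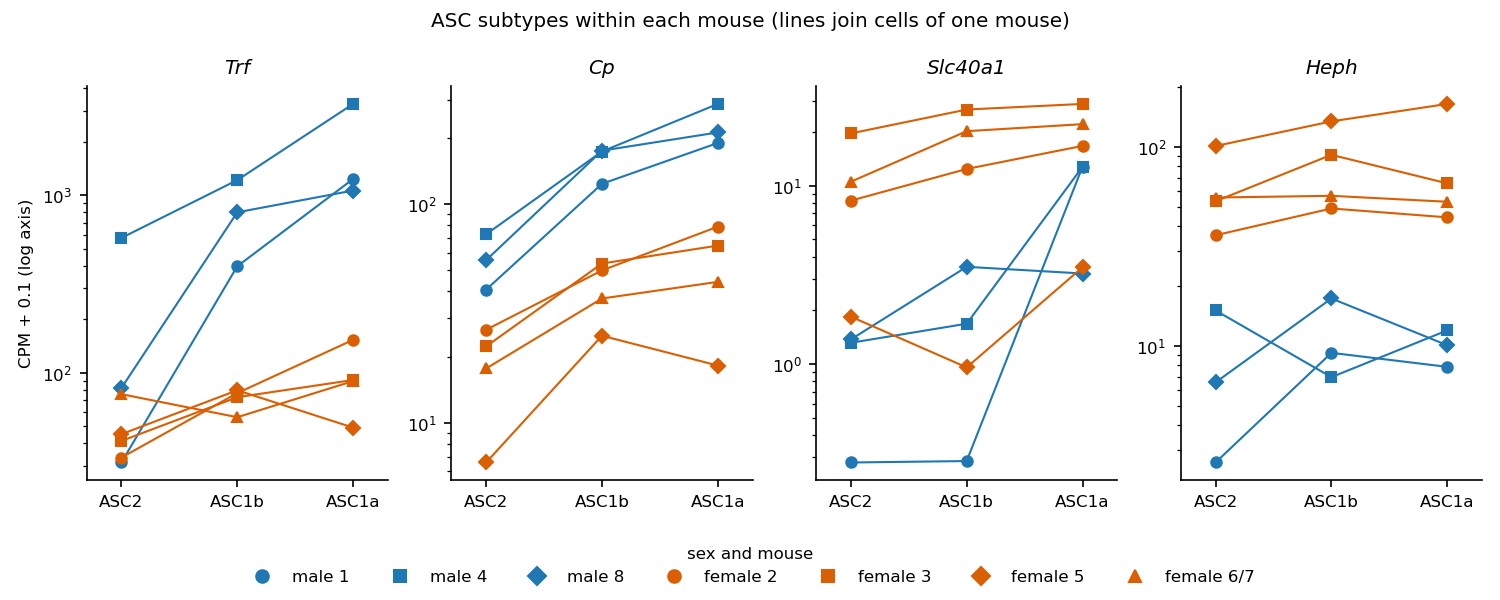
Levels of Trf, Cp, Slc40a1 and Heph in ASC2-like, ASC1b-like and ASC1a-like cells, as CPM with a small constant added on a log axis that differs between panels. Lines join the sums of 1 mouse id, blue for males and orange for females. Cp is higher in ASC1a-like than in ASC2-like cells along each of the 7 lines, the Trf lines are steeper in males than in females, and the Heph lines of the sexes do not cross.

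Sorting by DPP4 gave a division of ASC-like cells that did not use the marker scores, within mouse 2 only. The ASC-like cells of the plate labelled DPP4-positive (379) and of the plate labelled DPP4-negative (368) held 54.4 and 120.1 CPM of Trf, 38.2 and 64.4 of Cp, 9.60 and 15.1 of Slc40a1, and 33.4 and 52.7 of Heph. Fth1 (2227 and 3549.7) and Hp (3.76 and 7.66) were lower on the DPP4-positive plate too, while Tfrc (0.943 and 0.644) and Slc39a14 (4.94 and 4.18) were higher. The largest difference was that of Trf (-1.13 on the log2 scale). Fth1 differed by -0.67, although it was close between ASC1a-like and ASC2-like cells by score. These are CPM without TMM scaling, and the share of all genes lower on the DPP4-positive plate was not counted. An offset between the plates was therefore not tested. Dpp4 itself measured 177.7 and 1.72 CPM and was read in 94.5% and 4.08% of these cells, as the labels of the plates say for DPP4. The column names of the DPP4-positive plate carry a prefix that differs from its label on the Pdgfrb reporter, so its reporter gate is uncertain. With 1 plate for each gate there was no test, and plate and gate cannot be told apart.

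Between the sexes, transferrin, haptoglobin and ceruloplasmin were higher in male ASC-like cells and hephaestin was higher in female ASC-like cells. The question was which iron genes differ between males and females of the same depot. Heph, Hp, Trf and Cp are also on lists of sex-different genes that the study made at least in part from these samples, so their tests here are not independent evidence. Heph is in the study's core set, which also required a sex difference in bulk RNA-seq of ASC sorted from other mice. Those ASC came from pgWAT and from inguinal fat, and their data were not used here. The test was the quasi-likelihood F test of edgeR on the sums of 3 male and 4 female mouse ids, with log2 fold changes as male minus female, and calls needed an adjusted p below 0.05 together with a fold change above 2.6. Male and female ASC-like cells lay in different clusters. Of the 760 cells in clusters 3, 7, 9 and 12, 757 were male, and of the 1489 cells in clusters 1, 2, 4, 5 and 6, 11 were male. Hp and Trf were among the 10 leading genes of cluster 3, which held 297 of the 363 ASC-like cells of mouse 4. A difference in sex and a difference in the kinds of ASC-like cells compared cannot be told apart here. Of the 7 members that passed the filter on low counts, 4 were called, 3 higher in males and 1 higher in females, where 2.25% of the 11815 genes tested were called. Tfrc did not pass the filter. The same 4 had no overlap between male and female values, as had 20.6% of all genes tested.

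Trf averaged 976 ± 629 CPM in male (SD, n = 3) and 71.7 ± 12.1 in female ASC-like cells (SD, n = 4), from the 7 values given above. Its log2 fold change was 4.31 (SE 0.30, edgeR adjusted p = 0.000121).

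Hp, the haemoglobin scavenger, measured 26.9, 456 and 64.0 CPM in males (mice 1, 4 and 8) and 5.66, 7.59, 0.617 and 3.30 in females (mice 2, 3, 5 and 6/7). The male values spread over more than 10-fold, with mouse 4 far above the others, but the lowest of them was above the highest female value. The log2 fold change was 5.75 (SE 0.87, edgeR adjusted p = 0.0101). With cells classed by marker scores in place of clusters it was 2.64, not called (edgeR adjusted p = 0.260), and the sexes overlapped. In thinned cells Hp was read in 28.7%, 96.4% and 36.0% of ASC-like cells of mice 1, 4 and 8 and in 4.23% to 7.23% of those of the females. Hepatocyte markers, of the main known source of Hp and Trf, summed to 0 to 2.94 CPM in the ASC-like sums, and their part in these levels was not tested.

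Cp measured 116, 181 and 153 CPM in males and 50.9, 45.9, 16.6 and 32.7 in females. The groups did not overlap, and the log2 fold change was 2.78 (SE 0.35, edgeR adjusted p = 0.0038). Cp was read in 89.97% of thinned male and 49.1% of thinned female ASC-like cells.

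Heph ran the other way. Males had 6.26, 10.9 and 11.1 CPM and females 42.8, 68.7, 134.5 and 54.95, without overlap and with mouse 5 the highest. The log2 fold change was -2.37 (SE 0.53, edgeR adjusted p = 0.0468), just inside the threshold. The call was lost in 10 of 18 alternative settings, among them leaving out mouse 1, 3, 4, 5, 6/7 or 8, with adjusted p up to 0.127, and the log2 fold change stayed between -3.00 and -1.73 in all 18. Heph was read in 9.84%, 20.9% and 13.0% of thinned ASC-like cells of mice 1, 4 and 8 and in 43.9% to 78.8% of those of the females. Thus Cp was higher in males and Heph in females, in ASC-like cells of the same animals.

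The exporter and the storage gene were not called. Slc40a1 measured 4.43, 5.10 and 2.64 CPM in males and 12.3, 24.8, 2.04 and 17.4 in females, with female mouse 5 below every male (log2 fold change -1.03, SE 0.59, edgeR adjusted p = 0.366). Fth1 measured 1141, 2381 and 561 CPM in males and 2869.6, 1494, 1463 and 2498 in females (-0.08, SE 0.38, edgeR adjusted p = 0.929), and Slc39a14 had a log2 fold change of 0.74 (SE 0.41, edgeR adjusted p = 0.346). Tfrc, not tested, measured 2.43, 0.486 and 0.421 CPM in males and 0.0727 to 0.797 in females.

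**Figure D4:**
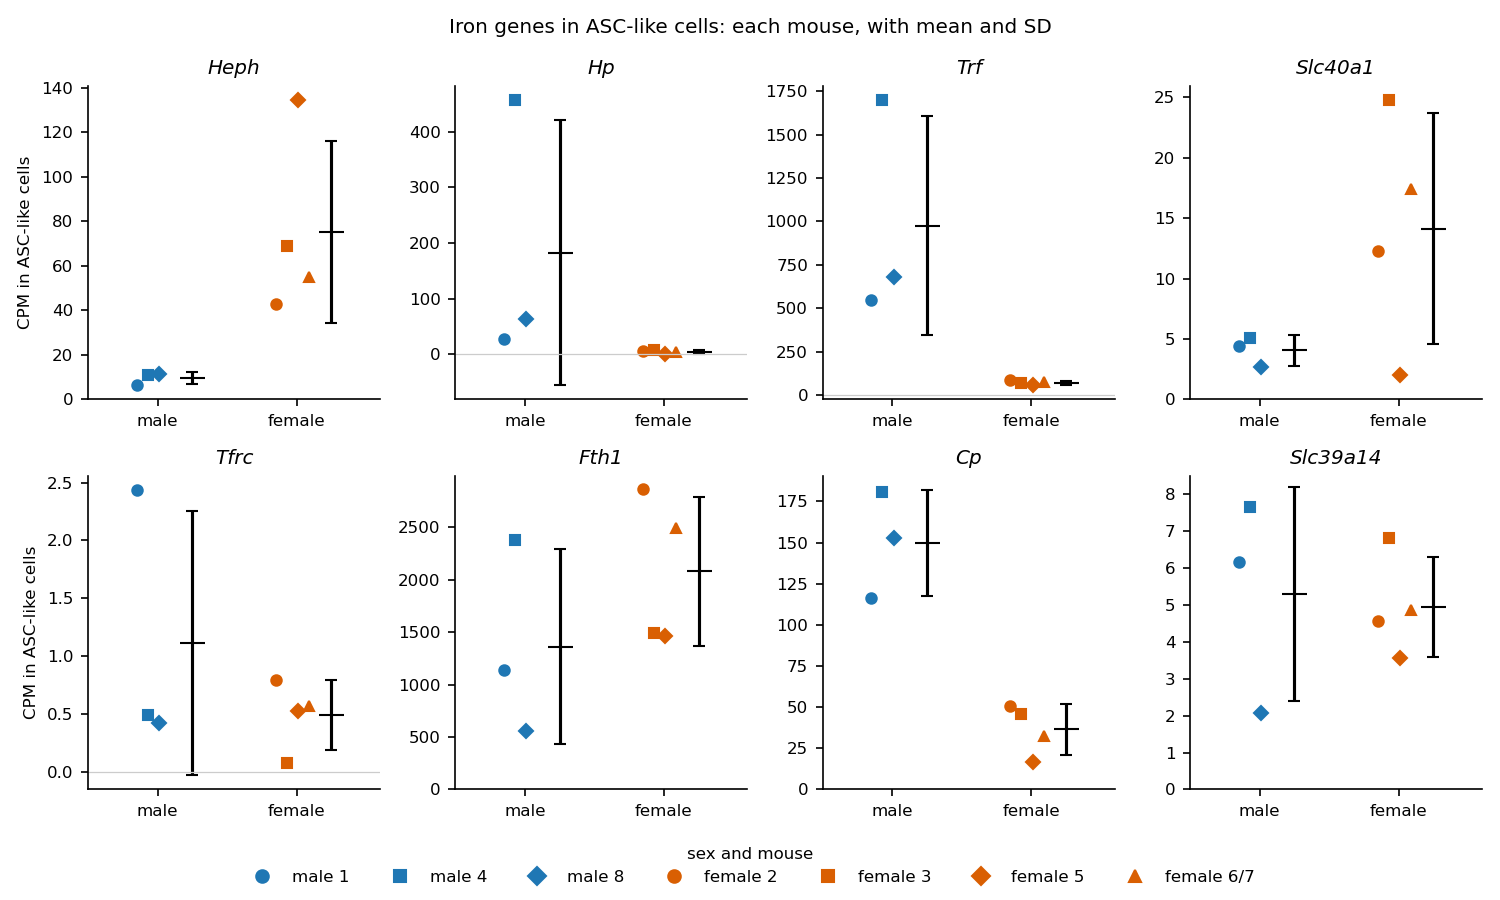
CPM of each gene in ASC-like cells of the 3 male and 4 female mouse ids on linear axes that differ between panels, with 1 point per mouse id and the mean and SD of each sex beside the points. The sexes are separate for Trf, Hp and Cp, with males higher, and for Heph, with females higher, and overlap for Slc40a1, Tfrc, Fth1 and Slc39a14.

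Markers of other cells were read in the same ASC-like sums, and their part in the sex differences was not tested. The adipocyte list summed to 25.2, 34.8 and 1.82 CPM in male and 33.7, 10.6, 11.2 and 36.3 in female sums, overlapping between the sexes, with Adipoq at 0.00405 to 0.0218 CPM in males. The macrophage list summed to 2.75 to 9.55 CPM over all 7. The share of ribosomal RNA was 53.9%, 26.1% and 47.4% in males and 28.5%, 24.6%, 46.9% and 31.7% in females, and was lowest among males in mouse 4, the male with the highest Trf, Hp, Cp and Fth1; its part in these values was not tested. A cluster of 100 male ASC-like cells (cluster 12), 89 of mouse 1 and 11 of mouse 8, with Sox10 at 23.5 CPM had Heph at 2.28, Trf at 30.7, Cp at 44.6 and Hp at 18.2 CPM. Without it Trf, Hp and Cp were still called and Heph was not.

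Within subtypes, which inherit the division of the clusters by sex, the male excess of Cp was called in all 3 and that of Trf and Hp in 2 each. In ASC1a-like cells 3 of 6 members tested were called (1.21% of all genes), namely Trf (4.83, SE 0.40, edgeR adjusted p = 0.000129), Hp (6.50, SE 0.71, adjusted p = 0.000954) and Cp (2.91, SE 0.39, adjusted p = 0.0056). In ASC1b-like cells 2 of 7 were called (1.37%), Trf (4.15, SE 0.38, edgeR adjusted p = 0.000302) and Cp (2.78, SE 0.34, adjusted p = 0.0023), while Hp was not (5.13, SE 1.18, adjusted p = 0.0653). In ASC2-like cells 2 of 7 were called (0.47%), Hp (5.57, SE 0.94, edgeR adjusted p = 0.0308) and Cp (2.33, SE 0.40, adjusted p = 0.0347), while Trf was not (2.44, SE 0.59, adjusted p = 0.115).

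Heph was called in no subtype, with log2 fold changes of -2.51, -2.05 and -2.54 in ASC1a-, ASC1b- and ASC2-like cells (edgeR adjusted p = 0.0797, 0.152 and 0.0651). In each subtype the male and female Heph values did not overlap: 7.73 to 11.9 against 44.2 to 165 CPM, 6.85 to 17.2 against 49.0 to 134, and 2.49 to 14.96 against 35.9 to 101. Whether the sex difference of Trf differs between subtypes was not tested. The ASC2-like calls were the least stable, with 0 members called when mouse 3, 4 or 6/7 was left out or when the filter on low counts was relaxed. The subtypes come from the same mice, so they are not separate replicates of the sex difference.

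EC-like cells were also divided by animal. Cluster 8, led by Gm8141, Apln and Prnd, held 171 of the 177 EC-like cells of mouse 1, and cluster 0 held 28 of the 29 of mouse 8 and 348 of the 354 of the females. Pecam1, an endothelial marker, measured 439 CPM in mouse 1 and 884 to 1449 in the other EC-like sums. In EC-like cells, of 2 male and 3 female mouse ids, 0 of the 5 members tested were called, where 0.0494% of 8103 genes were (4 genes) and 612 genes had an unadjusted p below 0.05. Heph measured 12.7 and 7.99 CPM in males and 11.6, 10.7 and 11.6 in females, overlapping, with a log2 fold change of 0.63 (SE 0.74, edgeR adjusted p = 0.850). Trf also overlapped (0.57, SE 0.54, edgeR adjusted p = 0.812). Hp was higher in both males, with 64.7 and 96.2 CPM (mice 1 and 8) against 28.2, 37.1 and 29.3 in females, but was not called (2.06, SE 0.50, edgeR adjusted p = 0.531).

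Hp in EC-like cells was called by the likelihood ratio test of edgeR (adjusted p = 0.046) and by DESeq2 (adjusted p = 0.0146). Leaving out mouse 1 left 1 male, whose spread has to be assumed equal to that of the females, so p-values and calls of that fit are not given. Fth1 and Hp were the 2 members without overlap between the sexes, where 38.9% of all genes tested had none. Fth1 was lower in both males as CPM (596 and 326 against 632 to 930.1), while its TMM-scaled log2 fold change was 0.06 (SE 0.46, edgeR adjusted p = 0.981). Adding the unnamed cluster with adipocyte genes to the EC-like cells turned the log2 fold change of Hp to -0.16. A difference between ASC-like and EC-like cells in the sex effect of a member was not tested. In macrophage-like and mural-like cells a test between the sexes was not made, since each had 1 male and 1 female with enough cells.

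**Figure D5:**
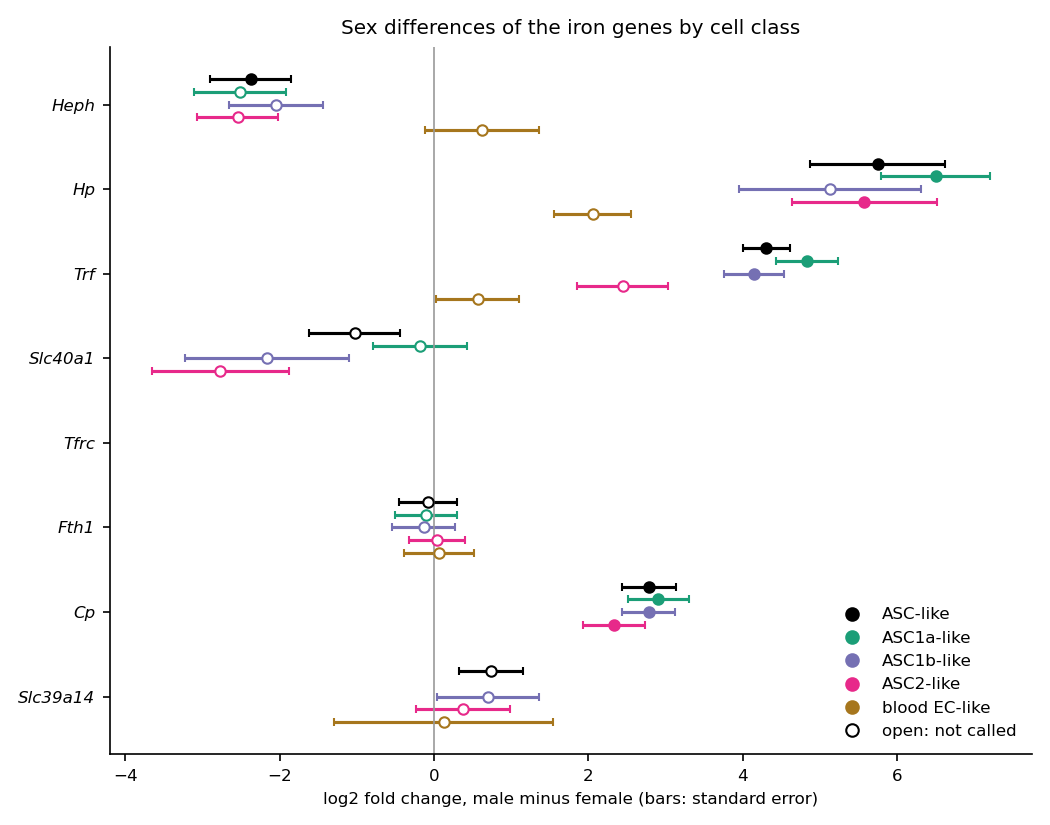
Log2 fold change, male minus female, with bars for its standard error from edgeR, for each member tested in ASC-like, ASC1a-like, ASC1b-like, ASC2-like and blood EC-like cells, with filled points where a gene was called and open points where it was not. Trf, Hp and Cp lie to the male side and Heph to the female side in the ASC-like fits, no EC-like value is called, and Tfrc was not tested.

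Of the wider iron pathway, 57 other genes were listed, 52 were in the table and 45 were tested in ASC-like cells. 1 was called, against 2.25% of all genes, namely Lcn2 (lipocalin 2, which binds iron-carrying siderophores), higher in males (5.76, SE 0.84, edgeR adjusted p = 0.00784). It measured 9.26, 8.47 and 0.878 CPM in males and 0.069 to 0.311 in females. The lowest male value was thus above the highest female value, at a low level. By role, 1 of 9 uptake genes was called, and 0 of 4 storage, 0 of 2 export, 0 of 6 control, 0 of 14 haem and 0 of 10 mitochondrial iron genes. The median log2 fold change was 0.17 over the 45, 0.74 over the 7 members tested and 0.04 over all genes, and 8 of the 45 had an unadjusted p below 0.05, as had 2289 of all 11815 genes (19.4%). Without mouse 1 or mouse 4 Lcn2 did not pass the filter on low counts.

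Lcn2 was also called in ASC1b-like cells (7.43, SE 1.27, edgeR adjusted p = 0.0222), where the males had 27.6, 16.4 and 1.79 CPM. This call was lost with a low filter or none and without mouse 2, 5 or 6/7 (edgeR adjusted p up to 0.0594), and Lcn2 was not tested there without mouse 1 or mouse 4. 0 of 34 listed genes were called in ASC1a-like, 0 of 36 in ASC2-like and 0 of 35 in EC-like cells.

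The most abundant listed genes per kilobase were Ftl1 in all 4 classes, followed by Steap4, a metalloreductase, in ASC-like (122 CPM per kb) and mural-like cells (165), by Pcbp1, an iron chaperone, in EC-like cells (89.1) and by Hmox1, the haem oxygenase that frees iron from haem, in macrophage-like cells (193). Hmox1 measured 123 and 552 CPM in macrophage-like cells of mice 1 and 5. Cd163, the receptor of the Hp complex, measured 157.5 and 344 CPM there and 0.0219 to 0.443 in ASC-like sums.

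The genes whose levels were most like those of the members were found as the 3 highest Pearson correlations of log2(CPM + 1) over 31 sums of mice and classes, among 9460 genes. The sums share mice, so the values are descriptive. Tfrc was most like Cfp (r = 0.866), Aif1 (0.854) and Clec4a1 (0.854), and Slc40a1 most like Rgs10 (0.814), Ftl1-ps1 (0.79999) and Myo5a (0.799). Trf was nearest to P2ry6 (0.777), Rnpep (0.721) and Ctsc (0.719). Cp was nearest to Ank2 (0.894), Rem1 (0.860) and Dpyd (0.855), and Heph to Adh1 (0.853), Atxn10 (0.850) and Spon2 (0.849). Fth1 was nearest to Fkbp2 (0.944), Rpl10 (0.906) and Rplp1 (0.898), and Slc39a14 to Gbf1 (0.737), Fbxo9 (0.737) and Pla2g12a (0.701). Hp had the weakest likeness, to Tpm3-rs7 (0.694), Mrap (0.683) and Ddx3y (0.676), the last a gene of the Y chromosome.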

How the data were processed

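Smart-seq2 libraries of single SVF cells were made by the authors, aligned with STAR to mm10 and quantified with Salmon (tximport). Versions are not given in the sources used here. The deposited values are raw whole-number read counts for each gene in each cell, without molecular identifiers and with no statement that strand was used. Per the study's methods, low-quality and mixed cells had been removed. Of 23507 gene rows, 23461 matched GENCODE vM21, and 72 ERCC rows (1.98% of reads) were left out.

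Cells were clustered in Seurat 5.3.0 (18 clusters) and named from fixed markers where at least 3 were read in 25% of cells. Clusters led by adipocyte genes (122 cells) or with high mitochondrial share (51) stayed unnamed. No doublet caller was run. No cell name was shared between plates (0).

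Counts were summed per mouse and class (at least 10 cells). Genes with over 600 counts in at least 2 sums were tested with edgeR 4.0.16 (quasi-likelihood F test, TMM, two-sided, Benjamini-Hochberg over all genes), after the test was checked on simulated data. SE was derived from the F statistic. Mice are the replicates. DESeq2 1.42.0 and the other alternatives are described at the end. The members and gene lists were chosen with earlier results of these data known. All members are named, with listed iron genes that were called or were the 2 most abundant of a class, and the 3 genes most like each member. Scripts ran in Python 3.11.15 (pandas 2.3.3) and R 4.3.3.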

Additional observations from a re-analysis of the deposited data

Results flagged for a closer look

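Hp and Trf were abundant in a cluster that no comparison used, 122 cells led by adipocyte genes, of which 8 were male. Summed over its cells, Hp stood at 277.9 CPM and Trf at 762.6 CPM, with Adipoq at 817, Cp at 12.4 and Heph at 1.23 CPM. In another unused cluster, 51 female cells with a high mitochondrial share, Fth1 stood at 8056 CPM, above each class sum, with Heph at 77.4 and Hp at 0.0849 CPM.

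Of 56 groups of 4 or more mice tested for a sample far from the others, 2 had one, where chance gives about 1 in 20. Both were in female ASC1b-like cells: Slc39a14 in mouse 6/7 (9.56 CPM) and Tfrc in mouse 5 (1.04 CPM).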

How the results depend on the processing

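Trf and Cp were called in ASC-like cells in 18 of 18 alternatives (lowest log2 fold changes 3.27 and 2.03), Hp in 17 of 18 (not with classes taken from marker scores, 2.64, adjusted p = 0.260) and Heph in 8 of 18. Over all sex differences of single genes, 403 values kept direction and side of the threshold, 19 became called, 30 lost the call and 30 turned sign. The cause was not tested.

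Genes called in ASC-like cells numbered 266 (185 higher in males) but 310 with library totals alone (87 higher in males), 550 by likelihood ratio, 594 by DESeq2, 171 with a low filter and 170 with none, and 92 to 343 without 1 mouse. In EC-like cells the 4 became 60 by likelihood ratio, 105 by DESeq2, 0 with a low or no filter, and 0 without mouse 2, 5 or 6/7. Without mouse 1 or mouse 8, EC-like cells have 1 male, which is assumed to vary like the females, so counts of those fits are not given. By likelihood ratio and DESeq2, ASC1a-like calls went from 112 to 344 and 385, ASC1b-like from 124 to 355 and 388, and ASC2-like from 43 to 232 and 264.

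Iron genes called in ASC-like cells (5) were 3 without mouse 1 or mouse 4 and 3 to 5 without any 1 mouse, and members 3 to 4. In EC-like cells (0 called) likelihood ratio and DESeq2 gave 1 iron gene, a member, and leaving out mouse 2, 5 or 6/7 gave 0. Counts of the EC-like fits that leave 1 male are not given. In ASC1a-like cells (3) DESeq2 gave 5, and leaving out 1 mouse 3. In ASC1b-like cells (3 iron genes, 2 members) library totals gave 5 and 4, likelihood ratio 7 and 4 and DESeq2 6 iron genes, and leaving out 1 mouse 2 to 3 and 2. In ASC2-like cells (2 members) likelihood ratio and DESeq2 gave 6 iron genes and 5 members, a low filter or none 0, and leaving out 1 mouse 0 to 3.

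Of values that turned sign, Fth1 became 0.09 without mouse 2 and 0.21 without mouse 8 in ASC-like cells (lowest -0.26), 0.07 and 0.20 in ASC1a-like (lowest -0.32) and 0.08 and 0.14 in ASC1b-like cells (lowest -0.33). In ASC2-like cells it became -0.50 with library totals and -0.15, -0.07, -0.07 and -0.09 without mouse 1, 3, 4 or 5 (highest 0.23). Slc40a1 in ASC1a-like cells became 0.13 without mouse 3 and 0.19 without mouse 8 (lowest -0.81). Slc39a14 became -0.079 in ASC1b-like and -0.078 in ASC2-like cells with library totals and -0.15 in ASC1b-like cells without mouse 1 (highest 1.15). In EC-like cells library totals gave Heph -0.14, Trf -0.34, Fth1 -0.71 and Slc39a14 -0.61. Adding the adipocyte-gene cluster, an alternative chosen after seeing the data, gave Hp -0.16, Trf -1.15 and Fth1 -0.20. Fth1 there was also -0.020 with no filter, -0.27 with marker classes, -0.073 without mixed cells, -0.47 without mouse 1 and -0.16 without mouse 6/7 (highest 0.44), and Slc39a14 was -5.82 without mouse 1 and -0.25 without mouse 2 (highest 1.11). The EC-like values without mouse 1 rest on 1 male.

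Members over 2-fold lower in EC-like cells (2) were 1 with marker classes or a pseudocount of 5, and 0 to 1 were higher without 1 mouse (1 without mouse 8). In macrophage-like cells 2 to 4 were higher (4 without mouse 1) and 1 to 4 lower (4 without mouse 5), with 2 lower by marker classes. In mural-like cells (3 lower) 5 were lower with marker classes, without mixed cells or without mouse 2, 1 with a pseudocount of 5, and 0 to 2 higher (2 without mouse 1). ASC1b-like cells had 1 higher member without boundary cells or without mouse 2, and 0 to 1 without any 1 mouse. Members read in over 50% of cells went from 2 to 4 in macrophage-like and from 1 to 3 in mural-like cells without thinning. Subtype differences kept their size within the spread between mice for all 192 values, and class differences for 339, while 21 moved. For the comparison of the sexes no paired analysis was possible, because each mouse has 1 sex.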

Other observations

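The 19 epithelial-like cells, all of mouse 1, had a profile of iron genes unlike the other classes. Tfrc stood at 71.3 CPM, close to the 74.1 of the macrophage-like cells of the same mouse, Cp at 90.9, Heph at 32.8 and Fth1 at 587 CPM, while Trf was at 6.31. Single cells carried much of this, since 1 cell held 58.3% of the Tfrc reads and 1 cell 48.3% of the Heph reads. After thinning, Tfrc was read in 6 and Heph in 4 of the 19 cells. Lcn2, the siderophore-binding protein, stood at 720 CPM. In VSMC-like cells of mouse 1 Slc40a1 had no read (up to 0.131 CPM), Heph was at 0.0874, Hp at 0.131 and Trf at 4.28 CPM, and Fth1 at 757. With 1 mouse in each, there was no test.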
